A study of Mus musculus with 4 samples.

Results

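On the day after a cryoinjury of the newborn mouse heart, 40 of the 445 spots kept in the tissue section carried the highest shares of 4 neutrophil transcripts among the spots that were not rich in injury genes. Visium, the assay used, reads RNA from a slice of tissue laid over barcoded capture spots, and each spot can hold several cells of different types. Spots with at least 500 UMIs (unique molecular identifiers, 1 for each captured RNA molecule) were kept. The top 10% by share of UMIs from Spp1, Gpnmb, Arg1, Lgals3 and Ccl6, genes of macrophages and injured tissue, were then set aside as 44 injury-gene spots. Of the 401 spots that remained, the top 10% by share of UMIs from S100a8, S100a9, Cstdc4 and Cstdc5 are called neutrophil-gene spots here, and the 361 others are called other remaining spots. Both steps used measured values of this section. Spot positions and images were not used, so "outside the injury" means outside the spots richest in injury genes and not a mapped place.

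The series holds 4 heart sections of 10 µm from ICR mice with 3067 spots, 1 section at each time. All 4 hearts had the same cryoinjury, a pre-cooled probe held to the apex of the left ventricle for 5 seconds at postnatal day 1. They were taken 1, 4, 7 and 14 days later, at postnatal days 2, 5, 8 and 15, and are called d1, d4, d7 and d14. No genotype or drug is labelled, no section of an uninjured heart was analysed here, and no comparison has a replicate check. With 1 section no test was possible, and because the d1 spots were chosen on values of the same section, every d1 value below is a description. Ratios carry exact 95% intervals that cover counting error only.

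Neutrophils are short-lived white blood cells made in the bone marrow, and they are among the first cells to enter injured heart muscle. S100a8 and S100a9 encode the paired subunits of calprotectin, a calcium-binding complex that fills much of the neutrophil cytoplasm. Cstdc4 and Cstdc5 belong to the stefin A family, inhibitors of cysteine proteases that in the mouse form a cluster of gene copies expressed in myeloid cells. Neutrophil granule genes are switched on in stages: azurophil granule proteases early in the bone marrow, specific granule proteins next, gelatinase granule proteins later, and most surface receptors in mature cells.

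The calprotectin genes lie on chromosome 3 in GRCm38, S100a8 at chr3:90668978-90670035 on the plus strand and S100a9 at chr3:90692632-90695721 on the minus strand. The 7 stefin A genes considered lie within 299 kb of chromosome 16, chr16:36156811-36455392. Cstdc4 is at chr16:36184212-36188111 on the plus strand and Cstdc5 at chr16:36359382-36367748 on the minus strand. GENCODE vM21 lists them as Gm5483 and BC100530, and the third gene of that kind, Cstdc6, as BC117090. Since several family members were high in the same spots, the sequences before their starts were compared. Of the 7 genes, 6 had an entry in the RefSeq promoter table for GRCm38.p6. A run of 12 bases was found in the 150 bases before the start of all 6, and it was looked for because it is the longest one they share. The 3 windows that lie outside the gene in both RefSeq and GENCODE are shown 5′ to 3′ with that run in capitals, Cstdc4 from the scoring genes and Stfa2l1 and Stfa3 from the genes outside the rule:
Cstdc4: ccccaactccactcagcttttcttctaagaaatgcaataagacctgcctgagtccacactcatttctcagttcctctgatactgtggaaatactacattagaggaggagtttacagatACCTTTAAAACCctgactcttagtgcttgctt
Stfa2l1: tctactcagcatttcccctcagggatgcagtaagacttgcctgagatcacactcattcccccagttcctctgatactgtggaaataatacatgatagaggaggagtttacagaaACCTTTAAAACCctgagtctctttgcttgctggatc
Stfa3: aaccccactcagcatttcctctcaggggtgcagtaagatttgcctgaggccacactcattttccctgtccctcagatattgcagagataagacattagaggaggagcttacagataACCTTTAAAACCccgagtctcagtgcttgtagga
These windows are chr16:36184062-36184211 (plus strand), chr16:36156661-36156810 (plus strand) and chr16:36455393-36455542 (minus strand) of GRCm38.p6. The run ACCTTTAAAACC, searched on both strands, was present in 10 of 32851 windows of the same length, 0.0304% of all promoters in the table. Of those 10 genes, 9 are on chromosome 16, but the 6 genes that the run was taken from are among them by construction. The others on chromosome 16 are Csta3, Cstdc3 and Gm7260, and Gm39539 is on chromosome X. Neither calprotectin gene has it in its window. In gapped alignments of the 120 bases that end with the run, pairs of these 6 genes were 76.4% to 94.2% identical. Copies of this kind can share reads: of the windows of 50 bases in the last 300 bases of the longest transcript, 66.1% of those of Cstdc5 also occur in a transcript of Cstdc6, Stfa1 or Csta1. For Stfa2, 25.1% also occur in a transcript of Stfa2l1 or Gm4758, and for Stfa2l1, 24.3% also occur in one of Stfa2. The counts of Cstdc5, Cstdc6, Stfa1, Stfa2 and Stfa2l1 are therefore uncertain as single genes, while for S100a8, S100a9, Cstdc4 and Stfa3 no such window was shared.

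The scoring genes set the neutrophil-gene spots apart by construction. They had 450 scoring UMIs, or 1642 CPM (UMIs per 1e6 UMIs without haemoglobin, mitochondrially encoded and the 9 scoring genes of both steps), against 217 UMIs and 80.9 CPM in other remaining spots. The injury-gene spots, which were not chosen on these 4 genes, had 265 scoring UMIs and 1003 CPM. S100a8 had 158 UMIs in neutrophil-gene spots, 70 in other remaining spots and 106 in injury-gene spots. S100a9 had 167, 78 and 107 UMIs in the same order of sets, Cstdc4 had 27, 17 and 17, and Cstdc5 had 98, 52 and 35. An S100 gene and a Cstdc gene were found together in 27 of 40 neutrophil-gene spots, in 26 of 361 other remaining spots and in 18 of 44 injury-gene spots. The injury genes of the first step gave 17 UMIs (62.0 CPM) in neutrophil-gene spots, 182 UMIs (67.8 CPM) in other remaining spots and 1884 UMIs (7132 CPM) in injury-gene spots. The neutrophil-gene spots were thus no richer in Spp1, Gpnmb, Arg1, Lgals3 and Ccl6 than the spots they were compared with, which the first step limits.

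The neutrophil-gene spots did not form one even group. Scoring UMIs per spot ran from 1 through a median of 6 to 87, and the 3 highest spots, with 87, 61 and 42, held 42.2% of the 450. At the other end, 11 of the 40 spots had 1 or 2 scoring UMIs and were shallow, with a median of 2046 UMIs per spot. Over the whole set the median depth was close to that of the rest, with 7746 UMIs (690 to 14638) in neutrophil-gene spots and 7996 (612 to 17144) in other remaining spots, but the lower quartile was 3042 UMIs in neutrophil-gene spots and 5684 in other remaining spots. Among other remaining spots, 228 of 361 had no scoring UMI and none had more than 5. The least share inside the rule was 4.77 scoring UMIs per 10000 UMIs and the largest share outside it 4.42, so spots at the edge of the rule differed little.

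**Figure D1:**
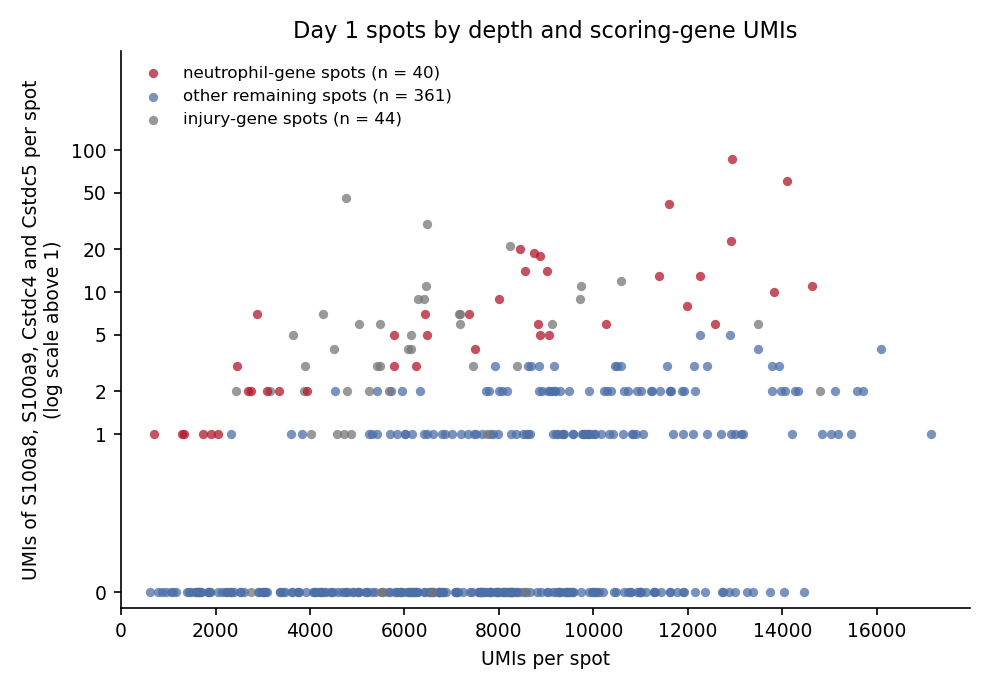
Each point is 1 d1 spot, with its UMIs on the x axis and its UMIs of S100a8, S100a9, Cstdc4 and Cstdc5 on the y axis (linear from 0 to 1, log scale above). The 40 neutrophil-gene spots reach 87 scoring UMIs at the top and hold 11 shallow spots with 1 or 2 at the lower left, the 361 other remaining spots reach 5, and the 44 injury-gene spots reach 46.

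Neutrophil markers that the rule did not use were also at a higher level in the spots it chose than in other remaining spots. The 14 markers summed to 63 UMIs in neutrophil-gene spots (230 CPM) and 50 UMIs in other remaining spots (18.6 CPM), a ratio of 12.3 (8.38 to 18.3). Injury-gene spots had 71 UMIs of them (269 CPM), so that neutrophil-gene spots stood at 0.855 (0.599 to 1.22) of the injury-gene level. At least 1 marker was detected in 17 of 40 neutrophil-gene spots, 42 of 361 other remaining spots and 27 of 44 injury-gene spots. Of the 14, Ly6g and Fpr1 had 0 UMIs in all 3 sets, and Il1r2, Trem1 and Clec4d had 0 in neutrophil-gene spots. A spot with more neutrophils and a spot whose neutrophils hold more of these RNAs cannot be told apart. The ratio rested in part on few spots: 1 neutrophil-gene spot held 22 of the 63 UMIs. Without the 4 spots with the most scoring UMIs the ratio was 6.41.

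Of the 63 marker UMIs in neutrophil-gene spots, 49 came from the 4 specific granule genes. Ltf, which encodes the iron-binding protein lactoferrin, had 11 UMIs in neutrophil-gene spots, 6 in other remaining spots and 1 in injury-gene spots, and its ratio of neutrophil-gene to other remaining spots was 17.9 (6.08 to 59.1). Ngp, a neutrophil granule protein gene, had 21, 10 and 3 UMIs in the same order of sets and a ratio of 20.6 (9.27 to 48.9). Camp, which encodes the antimicrobial peptide cathelicidin, had 6, 0 and 2 UMIs. Against a floor of 3 counts over the other remaining spots, Camp was 19.6-fold higher in neutrophil-gene spots, a value without counting error. Without that floor, the exact interval of its ratio had a lower limit of 11.5. Lcn2, which encodes the iron-scavenging lipocalin 2, had 11, 13 and 11 UMIs and a ratio of 8.28 (3.36 to 20.04). Together these 4 genes had 49 UMIs in neutrophil-gene spots, 29 in other remaining spots and 17 in injury-gene spots, 16.5-fold (10.2 to 27.2) over other remaining spots. Without the 1 neutrophil-gene spot that held 22 marker UMIs, the ratio of the 4 genes was 9.58 (5.46 to 16.8) and that of Ngp 11.3 (4.36 to 29.7). None of these genes had a part in choosing the spots. Ltf and Camp had fewer than the 20 UMIs that the rule of size below asks for.

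Genes of the stages before and after gave few UMIs. The azurophil granule genes Mpo, Elane, Prtn3 and Ctsg had 0 UMIs in neutrophil-gene spots, 2 in other remaining spots and 1 in injury-gene spots, all from Prtn3. With 0 of 274074 UMIs, which allows up to 3 counts, their summed level in neutrophil-gene spots could be up to 10.9 CPM. The pool of other remaining spots had 2683295 UMIs, so equal UMIs are not equal levels. The gelatinase granule genes Mmp8 and Mmp9, which encode a neutrophil collagenase and gelatinase B, had 5 UMIs in neutrophil-gene spots, 3 in other remaining spots and 8 in injury-gene spots. Their ratio of neutrophil-gene to other remaining spots was 16.3 (3.17 to 105). Retnlg, a resistin-like gene of mouse neutrophils, had 5, 5 and 4 UMIs in the same order of sets and a ratio of 9.79 (2.25 to 42.5). Csf3r, the receptor for the growth factor G-CSF, had 2, 2 and 6 UMIs (9.79, 0.710 to 135). Cxcr2, a chemokine receptor, had 2, 1 and 2 (19.6, 1.02 to 1155). At these counts a single molecule moves a ratio, and no order among these genes can be read.

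Against the injury-gene spots, the neutrophil-gene spots had fewer UMIs of receptor genes and more of Ltf, Camp and Ngp. Each set was chosen on measured values of its own, the neutrophil-gene spots on neutrophil genes and the injury-gene spots on genes that macrophages express, so part of a ratio between them can come from the choice. The 4 specific granule genes had 49 UMIs in neutrophil-gene spots and 17 in injury-gene spots, a ratio of CPM of 2.78 (1.57 to 5.15). Without the neutrophil-gene spot that held 22 marker UMIs it was 1.61 (0.846 to 3.15), an interval that includes 1. Ltf, Camp and Ngp alone had 38 and 6 UMIs, a ratio of 6.10 (2.56 to 17.7), and 3.55 (1.38 to 10.7) without that spot. The neutrophil-gene spots also held more scoring UMIs, 450 against 265. Per scoring UMI, the ratio was 1.70 (0.961 to 3.14) for the 4 specific granule genes and 3.73 (1.56 to 10.8) for Ltf, Camp and Ngp. Without that spot the ratio of Ltf, Camp and Ngp per scoring UMI was 2.38 (0.931 to 7.22), an interval that includes 1. The 7 receptor genes Csf3r, Cxcr2, Il1r2, Fpr1, Trem1, Clec4d and Ly6g had 4 UMIs in neutrophil-gene spots and 42 in injury-gene spots, a ratio of 0.0918 (0.0239 to 0.253). Clec4d, a C-type lectin receptor that monocytes and macrophages also carry, made up 24 of those 42 UMIs, and Il1r2, the decoy receptor for interleukin 1, made up 7. Injury-gene spots also had 788 UMIs of 18 monocyte genes (2983 CPM), against 141 UMIs (514 CPM) in neutrophil-gene spots, and the part of these cells in the difference was not tested. These classes of genes were grouped after the values of their members had been seen.

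**Figure D2:**
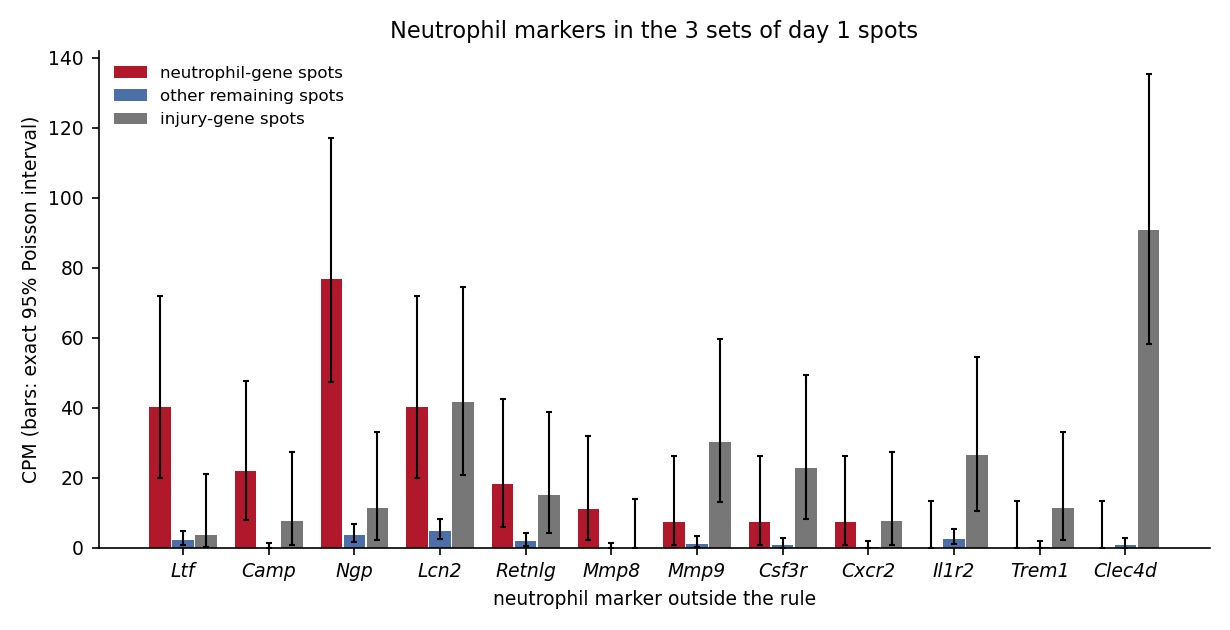
CPM of 12 neutrophil markers outside the rule in the 3 sets of d1 spots, with exact 95% Poisson intervals as error bars. Ltf, Camp and Ngp are highest in the neutrophil-gene spots, Lcn2 is at 40.1 CPM in neutrophil-gene spots and 41.6 CPM in injury-gene spots, and Clec4d has 0 UMIs in neutrophil-gene spots against 24 in injury-gene spots.

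The stefin A genes outside the rule followed the scoring genes. Stfa3 had 18 UMIs in 10 neutrophil-gene spots, 2 UMIs in other remaining spots and 9 in injury-gene spots, a ratio of 88.1 (21.1 to 783) over other remaining spots. Stfa2l1 had 19, 14 and 16 UMIs in the same order of sets and a ratio of 13.3 (6.32 to 28.6), and Stfa2 had 13, 12 and 11 and a ratio of 10.6 (4.46 to 25.4). Cstdc6 had 2, 2 and 0 UMIs, and Stfa1 had 0 in all 3 sets. The 5 genes together had 52 UMIs in neutrophil-gene spots, 30 in other remaining spots and 36 in injury-gene spots, 17.0-fold (10.6 to 27.6) over other remaining spots and 9.11-fold without the 4 spots with the most scoring UMIs. Of these genes, Stfa3 shares no window of transcript sequence with another gene, as given above. The broadly expressed relatives were close to equal. Cstb, which encodes stefin B, had 51.1 CPM in neutrophil-gene spots and 55.5 CPM in other remaining spots (0.920, 0.491 to 1.59), and Cst3, which encodes the secreted inhibitor cystatin C, had 445 and 379 CPM (1.17, 0.964 to 1.42).

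Within the neutrophil-gene spots, most marker UMIs lay in the spots with the most scoring UMIs. The 13 spots with at least 10 scoring UMIs held 52 of the 63 marker UMIs (377 CPM, 282 to 495) and 48 of the 52 UMIs of other stefin A genes, and every one of these 13 had a UMI of another stefin A gene. A marker UMI was found in only 9 of the 13, and 1 spot held 22 of their 52 marker UMIs. The 12 spots with 5 to 9 scoring UMIs held 6 marker UMIs (65.0 CPM, 23.8 to 141) in 6 spots and 3 stefin UMIs. The 4 spots with 3 or 4 scoring UMIs held 4 marker UMIs, all in 1 spot, and 1 stefin UMI. The 11 spots with 1 or 2 scoring UMIs held 1 marker UMI (43.1 CPM, 1.09 to 240) and 0 stefin UMIs. At their depth this last group could not be told from the other remaining spots, whose 18.6 CPM lies inside its interval. The UMIs of markers outside the rule were thus found chiefly in 13 of the 40 spots, and unevenly among those.

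Outside the chosen spots the marker level was lower. In the next 40 spots by scoring share the 14 markers had 43.9 CPM (24.6 to 72.5), in the 40 after those 19.6 CPM (7.87 to 40.3), and in the following 40 spots 8.03 CPM (1.66 to 23.5). The last 13 spots with a scoring UMI had 11.7 CPM (1.42 to 42.3). The 228 spots with 0 scoring UMIs had 15.98 CPM (10.1 to 24.0) from 23 UMIs, so markers were not absent where the scoring genes were. Other stefin A genes had 41.0 CPM (22.4 to 68.8) in the next 40 spots and 4.17 CPM (1.53 to 9.07) in those 228.

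**Figure D3:**
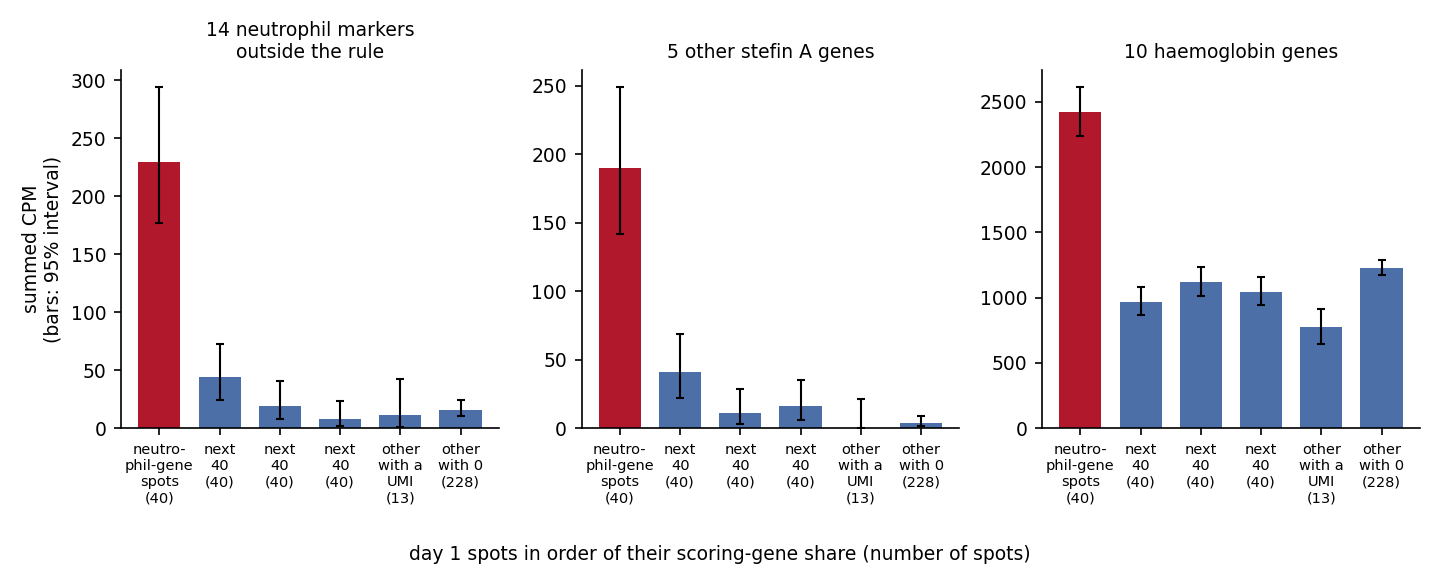
Summed CPM of the 14 neutrophil markers outside the rule, 5 other stefin A genes and 10 haemoglobin genes in d1 spots ordered by scoring share, from the 40 neutrophil-gene spots at the left to the 228 spots with 0 scoring UMIs at the right, with exact 95% Poisson intervals. Markers and stefin A genes are highest in the neutrophil-gene spots and lower in the next 40, while haemoglobin is at 2419 CPM in the neutrophil-gene spots and between 772 and 1227 CPM in every other group.

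Each pair of scoring genes, used alone, took spots that were also rich in the other pair. When the 40 spots were taken by S100a8 and S100a9 alone, 34 were the same spots, and Cstdc4 and Cstdc5, which then chose nothing, had 111 UMIs in the spots taken and 83 in the others, a ratio of 12.1 (9.02 to 16.3). When they were taken by Cstdc4 and Cstdc5 alone, 24 were the same, and S100a8 and S100a9 had 253 UMIs in the spots taken and 220 in the others, a ratio of 10.4 (8.67 to 12.5). The 14 markers were 10.6-fold (7.21 to 15.7) higher in the first choice and 9.56-fold (6.49 to 14.1) in the second.

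Of 9697 genes with at least 20 UMIs over both pools, 135 were at least 2-fold higher in neutrophil-gene spots than in other remaining spots with an interval above 1, which is 1.39%, and 121 were at most 0.5-fold with an interval below 1, which is 1.25%. By counting error alone, a 95% interval leaves at most 2.5% of features on each side. The limit on the ratio makes that share smaller, by an amount that was not computed. Since the same contrast also chose the spots, nothing is read from these shares. Among the 135, a gene had a median of 11 UMIs in neutrophil-gene spots, and 44 rested on fewer than 10. Among the 121, 113 rested on fewer than 10 UMIs, and 37 had 0. The median log2 ratio of all tested genes was -0.04. The genes past the threshold also changed with the choice of spots: of the 150 higher genes without the 4 spots with the most scoring UMIs, 86 were among the 135, and of the 146 higher genes when spots were chosen by Cstdc4 and Cstdc5 alone, 48 were.

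Several neutrophil and leukocyte genes were among the 135. Of 9 granule list genes tested, 5 were higher and 0 lower, with a median log2 ratio of 1.26. Besides Ngp and Lcn2 these were Alox5ap, Anxa1 and Hp. The list holds 33 genes, and the others did not reach 20 UMIs over both pools. Ngp, Lcn2 and Alox5ap had 10, 13 and 19 UMIs in other remaining spots. They reached 20 only with their UMIs from neutrophil-gene spots, so nothing is read from the 5 of 9 or from its median. Alox5ap, a membrane protein needed for leukotriene synthesis, had 10 UMIs in neutrophil-gene spots and 19 in other remaining spots, 5.15-fold (2.14 to 11.7). Anxa1, which encodes the anti-inflammatory protein annexin A1, had 33 UMIs in 19 neutrophil-gene spots and 135 UMIs in other remaining spots, 2.39-fold (1.58 to 3.52). Of the 5 stefin list genes tested, 3 were higher, and of 3 surface receptor genes none. The higher stefin genes, Stfa3, Stfa2l1 and Stfa2, had 2, 14 and 12 UMIs in other remaining spots. These genes too reached the minimum only with their UMIs from neutrophil-gene spots, so nothing is read from the 3 of 5. Of 18 further neutrophil list genes 2 were higher, the granule proteoglycan gene Srgn at 2.18-fold (1.06 to 4.12) and the guanine deaminase gene Gda at 3.12-fold (1.12 to 7.55). Hp, the haptoglobin gene, was 2.59-fold (1.09 to 5.52). Beyond these lists, Ccn1, an immediate early matricellular gene, was 2.14-fold (1.11 to 3.86) on 14 UMIs, and Gja5, a gap junction gene of atria and conduction tissue, was 2.15-fold (1.01 to 4.19) on 11 UMIs. Hp, Srgn, Gda, Ccn1, Coro1a, Mrc1, Mcm3 and Hspb8, given here and below, lie outside the rule for named genes and were chosen after their values were seen.

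Summed over the 88 genes of the neutrophil lists that are neither scoring genes nor members of a list for another cell type or process, neutrophil-gene spots had 587 UMIs (2142 CPM) and other remaining spots had 4240 (1580 CPM), a ratio of 1.36 (1.24 to 1.48). Its members include genes that many cells express. The lysosomal tetraspanin gene Cd63 had 226 CPM in neutrophil-gene spots and 208 CPM in other remaining spots (1.09, 0.823 to 1.42). The calcium-binding protein gene S100a11 had 230 and 206 CPM (1.12, 0.845 to 1.45), and its relative S100a6 had 161 and 228 CPM (0.705, 0.507 to 0.958). Of the calcium-binding S100 genes named here, S100a6 was thus lower where S100a8 and S100a9 were chosen to be high.

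Genes on a list for white blood cells in general, called pan-leukocyte here, were higher by less than the neutrophil markers. The 23 pan-leukocyte genes had 86 UMIs (314 CPM) in neutrophil-gene spots, 481 UMIs (179 CPM) in other remaining spots and 541 UMIs (2048 CPM) in injury-gene spots, a ratio of 1.75 (1.37 to 2.21) over other remaining spots and 0.153 (0.121 to 0.193) over injury-gene spots. Tyrobp, an adaptor of myeloid receptors, had 19 UMIs in 15 neutrophil-gene spots and 63 UMIs in other remaining spots, 2.95-fold (1.67 to 5.00). Its partner Fcer1g, the Fc receptor gamma chain, had 3 and 60 UMIs (0.490, 0.0982 to 1.501). Coro1a, an actin regulator of leukocytes, was 3.09-fold (1.01 to 8.05) on 6 UMIs. Lyz2, the lysozyme gene of myeloid cells, belongs to the granule list and not to the pan-leukocyte list. It had 65.7 CPM in neutrophil-gene spots and 54.8 CPM in other remaining spots (1.199, 0.691 to 1.96) and did not pass the threshold. Of 10 pan-leukocyte genes tested, Tyrobp and Coro1a were past the threshold and none was lower.

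Macrophage and monocyte genes were close to equal in the chosen and the other remaining spots. The 22 resident macrophage genes had 649 CPM in neutrophil-gene spots, 673 CPM in other remaining spots and 4213 CPM in injury-gene spots, a ratio of 0.965 (0.823 to 1.13) over other remaining spots. The 18 monocyte genes had 514 and 543 CPM (0.948, 0.792 to 1.13) in neutrophil-gene and other remaining spots, and 33 interleukin 1 and chemokine genes had 737 and 768 CPM (0.960, 0.827 to 1.11). Mrc1, the mannose receptor gene, was 2.10-fold (1.02 to 3.96), with 7 of its 12 UMIs from 1 spot. These lists overlap with the injury genes in cell type, so the first step of the rule limits them: without that step, resident macrophage genes were 3.67-fold and pan-leukocyte genes 5.71-fold higher in the chosen spots. Lymphocyte genes were near 0, with 6 UMIs from 23 genes in neutrophil-gene spots and 13 in other remaining spots (4.52, 1.41 to 12.7), and mast cell, basophil and eosinophil genes had 2 and 18 UMIs (1.09, 0.122 to 4.54).

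Haemoglobin, the oxygen carrier of red cells, was also higher. All 4 haemoglobin genes tested passed the threshold. The 10 genes together, of which 5 had a UMI, had 663 UMIs (2419 CPM) in neutrophil-gene spots, 3021 UMIs (1126 CPM) in other remaining spots and 366 UMIs (1385 CPM) in injury-gene spots. The ratio over other remaining spots was 2.15 (1.97 to 2.34). Hbb-bs, an adult beta globin gene, had 357 UMIs in neutrophil-gene spots and 1584 in other remaining spots (2.21, 1.96 to 2.48), and Hba-a1, an alpha globin gene, had 223 and 1053 (2.07, 1.79 to 2.40). Of the 663 UMIs, 2 neutrophil-gene spots held 145 and 141. Without those 2 the ratio was 1.34 (1.201 to 1.49), and it was 1.78 (1.59 to 1.99) when the 18 other remaining spots with the most haemoglobin were left out as well. It was 1.41 (1.31 to 1.51) when the top 20% of spots were taken and 1.51 (1.37 to 1.65) when spots were scored by Cstdc4 and Cstdc5 alone. Per spot, haemoglobin took a median of 7.96 UMIs per 10000 (0 to 118) in neutrophil-gene spots and 5.804 (0 to 307) in other remaining spots, so the ranges overlapped. At least 20 per 10000 were found in 11 of 40 neutrophil-gene spots (27.5%, exact binomial 14.6% to 43.9%), 51 of 361 other remaining spots (14.1%, 10.7% to 18.2%) and 9 of 44 injury-gene spots.

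Other blood genes were close to equal in sum. The 16 red cell genes other than haemoglobin had 263 CPM in neutrophil-gene spots and 281 CPM in other remaining spots (0.935, 0.724 to 1.19), and 14 platelet genes had 164 and 138 CPM (1.19, 0.853 to 1.63). Single platelet genes differed. Itga2b, the platelet integrin alpha IIb, had 4 UMIs in neutrophil-gene spots and 12 in other remaining spots (3.26-fold, 0.767 to 10.8). Alox12, the platelet lipoxygenase, had 4 and 7 (5.59-fold, 1.20 to 22.0), with 3 of its 4 UMIs from 1 spot. Gng11 had 37 and 335 UMIs (1.08, 0.748 to 1.52), and Clec1b had 0 and 8. Haemoglobin and the markers lay partly in the same spots. The 13 spots with at least 10 scoring UMIs held 512 of the 663 haemoglobin UMIs (3713 CPM) and 52 of the 63 marker UMIs. Haemoglobin stood at 899 CPM (716 to 1114) in the 12 spots with 5 to 9 and 1065 CPM (668 to 1613) in the 4 with 3 or 4. The 11 spots with 1 or 2 scoring UMIs had 1985 CPM (1453 to 2648) and 1 marker UMI, so haemoglobin did not fall steadily with the scoring UMIs. The 2 spots with the most haemoglobin held 0 marker UMIs and 4 of the 52 UMIs of other stefin A genes, and the spot with the next most, 51 UMIs, held 22 marker UMIs. Whether blood within the section adds to the neutrophil-gene spots was not tested.

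Genes of the heart tissue itself were close to equal. The 25 ventricular cardiomyocyte genes had 126667 CPM in neutrophil-gene spots, 122779 CPM in other remaining spots and 78153 CPM in injury-gene spots, a ratio of 1.03 (1.02 to 1.04) over other remaining spots, and none of them passed the threshold. Myl2, the ventricular myosin light chain, had 16554 and 15649 CPM in neutrophil-gene and other remaining spots (1.06, 1.03 to 1.09), and Actc1, cardiac actin, had 15032 and 14583 (1.03, 0.998 to 1.06). Genes of fatty acid oxidation had 16952 and 16664 CPM (1.02, 0.987 to 1.05), and those of the respiratory chain 63377 and 63300 (1.00, 0.986 to 1.02). In the injury-gene spots, fatty acid oxidation genes had 9013 CPM. Endothelial genes had 4149 and 4405 CPM (0.942, 0.885 to 1.00), and 14 endothelial activation genes, among them adhesion molecules that neutrophils bind, had 693 and 744 CPM (0.931, 0.798 to 1.08).

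A few stromal groups were lower. The 21 epicardial genes had 29 UMIs (106 CPM) in neutrophil-gene spots and 522 UMIs (195 CPM) in other remaining spots, a ratio of 0.544 (0.361 to 0.791). None of the 8 tested passed the threshold one by one, and 1 of them was above 1. Aldh1a2, which makes retinoic acid in the epicardium, had 6 and 98 UMIs (0.599, 0.215 to 1.35). Fibroblast genes had 2361 and 2716 CPM (0.869, 0.801 to 0.942), with the collagen gene Col1a1 at 255 CPM in neutrophil-gene spots and 392 CPM in other remaining spots (0.652, 0.504 to 0.831). Col3a1, a second fibrillar collagen gene, had 781 and 851 CPM (0.918, 0.794 to 1.06). Proliferation genes had 1186 and 1363 CPM (0.870, 0.774 to 0.975), with the replication clamp gene Pcna at 109 and 139 CPM (0.785, 0.522 to 1.14) and 1 of 32 tested, the replication licensing gene Mcm3, past the threshold at 0.469 (0.185 to 0.992).

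**Figure D4:**
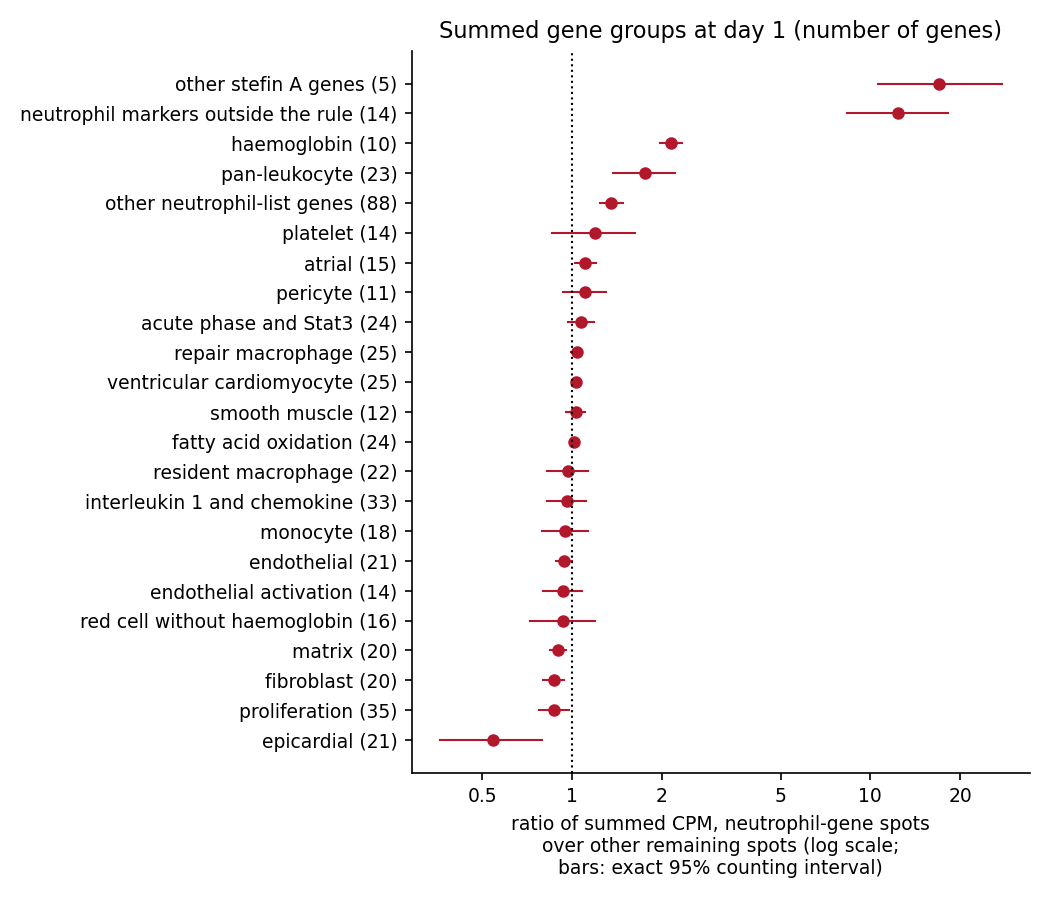
Ratio of summed CPM between neutrophil-gene spots and other remaining spots for 23 gene groups of d1, on a log axis, with exact 95% intervals that cover counting error. Stefin A genes and neutrophil markers lie above 10, haemoglobin is at 2.15, pan-leukocyte genes at 1.75, most tissue groups near 1, and epicardial genes at 0.544.

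Beyond the neutrophil genes, the higher genes with the largest ratios had few UMIs and no common theme was tested. Pvr, an adhesion molecule of the nectin family, had 11 UMIs in 10 neutrophil-gene spots and 25 UMIs in other remaining spots, 4.31-fold (1.91 to 9.08). Fign, a microtubule-severing ATPase, had 7 and 15 UMIs (4.57-fold, 1.58 to 11.9), and Dtx3, a Deltex family ubiquitin ligase, had 10 and 24 (4.08-fold, 1.74 to 8.85). Ephx1, microsomal epoxide hydrolase, had 10 and 25 UMIs (3.92-fold, 1.68 to 8.44), and Pip4k2a, a phosphoinositide kinase, had 10 and 27 (3.63-fold, 1.57 to 7.73). Nynrin, Zswim4, Ctxn1 and Ovca2 completed the 15 largest that could be named, at 3.67-fold to 4.64-fold on 6 to 9 UMIs in neutrophil-gene spots.

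The lower genes also rested on few UMIs. Gas1, a surface protein that binds hedgehog ligands, had 5 UMIs in neutrophil-gene spots and 173 in other remaining spots (0.283, 0.0907 to 0.673). Bicd2, an adaptor of the dynein motor, had 7 and 216 (0.317, 0.126 to 0.665). Amotl2, a junction protein of the angiomotin family, had 9 and 218 (0.404, 0.182 to 0.782). Dgcr2, Nudt16l1, Arf3, Bhlhb9, Ptms, Erp44 and Prkar2a, which completed the 10 smallest that could be named, lay between 0.284 and 0.408 on 5 or 6 UMIs. Naming asked for a UMI in at least 5 neutrophil-gene spots, which 30 of the 121 lower genes met together with the other limits. Genes with smaller ratios were therefore left out. Among list members, the endocardial gene Tgfbr3, which encodes the transforming growth factor co-receptor betaglycan, had 3 and 142 UMIs (0.207, 0.0422 to 0.617), and Hspb8, a small heat shock protein gene, had 3 and 103 (0.285, 0.0579 to 0.857).

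The 4 scoring genes were most abundant at d1 and rarer at the later times. Over all kept spots the d1 section had 289 CPM of them (271 to 308) and the d4 section 46.9 CPM (41.5 to 52.8). The later sections had 23.7 CPM (19.8 to 28.1, d7) and 53.2 CPM (46.5 to 60.6, d14). A scoring UMI was present in 47.6% of d1 spots, 19.2% of d4 spots, 6.59% of d7 spots and 8.85% of d14 spots. The median depth of those sections was 7810, 7998, 8028 and 3770 UMIs per spot in that order. The 14 markers outside the rule had 57.1 CPM in the d1 section, 14.4 in d4, 6.29 in d7 and 20.7 in d14. Each time is 1 heart, and time after injury cannot be told apart from postnatal age. Barcodes mark positions on the slide, and 248 to 418 of the 448 barcodes at d1 also occurred in each other section.

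Applied to each later section, the same rule again picked out spots with neutrophil markers. At d4 it took 59 spots with 191 scoring UMIs, against 67 in the 537 other remaining spots, and the 14 markers had 37 and 38 UMIs, a ratio of 9.99 (6.18 to 16.1). At d7, where 69 spots were taken, the scoring genes had 123 UMIs in the spots taken and 0 in the 628 others, so the rule took every remaining spot that had one. Of those 69 spots, 45 had a scoring UMI, and the other 24 had none and were taken as ties at 0. The markers had 15 UMIs in the spots taken, all in those 45, and 14 in the others, a ratio of 9.13 (4.11 to 20.4). At d14 it took 105 spots with 224 scoring UMIs, against 0 in the 953 others, with 4 of the 105 at 0, and the markers had 48 and 29 UMIs, a ratio of 13.8 (8.50 to 22.6). The d1 ratio of 12.3 lies inside the intervals of all 3 later sections, while the d1 level of the markers in neutrophil-gene spots, 230 CPM (177 to 294), was above those of d4 (81.1 CPM, 57.1 to 112), d7 (28.7 CPM, 16.05 to 47.3) and d14 (114 CPM, 84.4 to 152).

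Haemoglobin and leukocyte genes differed among the sections. The haemoglobin ratio of neutrophil-gene to other remaining spots was 2.15 in d1, 0.976 (0.927 to 1.03) in d4, 1.08 (1.05 to 1.11) in d7 and 1.90 (1.85 to 1.96) in d14. Pan-leukocyte genes stood at 1.75 (d1), 1.02 (0.841 to 1.23, d4), 0.919 (0.779 to 1.08, d7) and 1.203 (1.03 to 1.40, d14). The scoring genes had 1642 CPM in neutrophil-gene spots and 1003 CPM in injury-gene spots of d1. In the same order of sets, d4 had 419 and 22.5 CPM, d7 had 235 and 15.3 CPM, and d14 had 534 and 12.5 CPM. The injury-gene sets of the later sections held less of the injury genes than that of d1. Injury-gene spots had 7132 CPM of those genes at d1, 158 CPM at d4, 132 CPM at d7 and 988 CPM at d14. At d7, 17 of the 77 spots set aside had 0 UMIs of an injury gene and 48 had 1, and 41 of 66 spots at d4 and 71 of 117 at d14 had 1. The values of the injury-gene spots are therefore not compared across times.

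**Figure D5:**
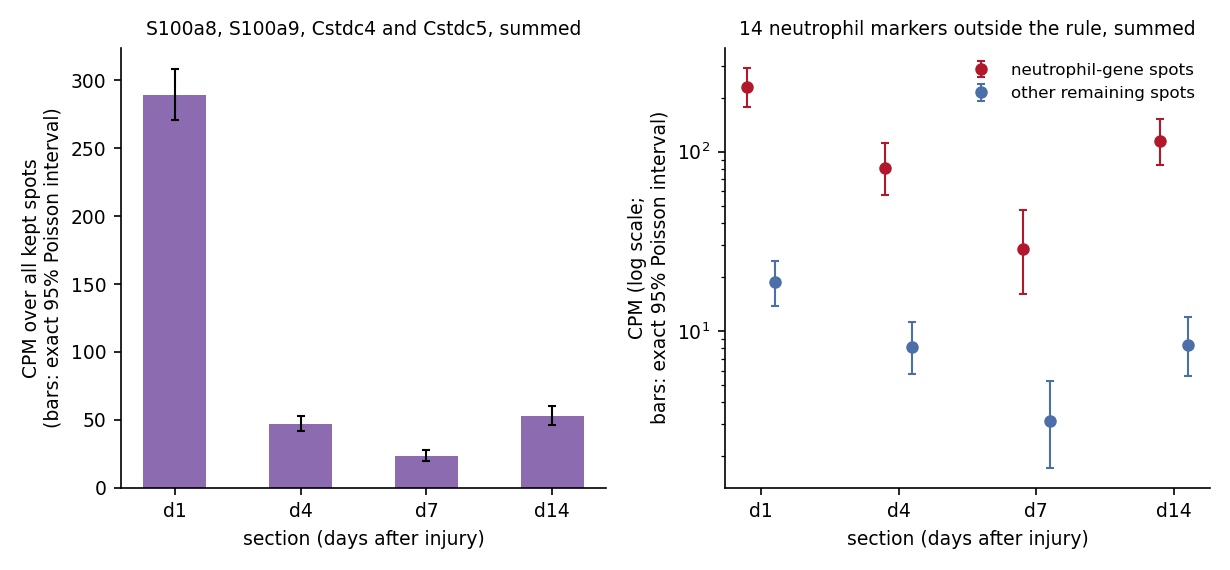
Left, summed CPM of S100a8, S100a9, Cstdc4 and Cstdc5 over all kept spots of each section; right, summed CPM of the 14 neutrophil markers outside the rule in neutrophil-gene and other remaining spots on a log axis, with exact 95% Poisson intervals. The scoring genes fall to 23.7 CPM at d7, against 289 CPM at d1, and in every section the markers are higher in the neutrophil-gene spots.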

How the data were processed

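The deposited files hold unnormalised UMI counts. Space Ranger 1.3.0 wrote them, per the file headers. The submitters' processing notes name build mm10 and, without a role, Seurat 4.1.1. How the deposited spots were selected is not given in the sources used here. The matrices hold 32285 features. For each set, the counts of its spots were added up and scaled to the total without 10 haemoglobin, 13 mitochondrially encoded and the 9 scoring genes, giving CPM. Ratios carry exact conditional binomial (Clopper-Pearson) 95% intervals, CPM exact Poisson and shares exact binomial ones, and cover counting error only. A gene passed at 20 or more UMIs over both pools, a ratio of at least 2 or at most 0.5 and an interval excluding 1. Candidates for naming were passing genes with a UMI in at least 5 chosen spots and no more than 50% of their UMIs from 1 spot. Predicted, ribosomal, haemoglobin, mitochondrially encoded and Y-linked genes, Xist and Tsix were left out. Of the rest, those with the 15 largest and 10 smallest ratios were named. Also named were the scoring genes, the neutrophil and stefin A genes outside the rule, and up to 4 members of each of 43 lists. Members, lists and rules were chosen with earlier results of these data known. Positions came from GENCODE vM21 (GRCm38), sequences from RefSeq (GRCm38.p6). Of 17 alternatives, 15 were listed at the start and 2 were added after seeing the data. Steps were tested on simulated data. Python 3.11.15, numpy 2.4.6, scipy 1.17.1, pandas 2.3.3 and, for TMM, edgeR 4.0.16 in R 4.3.3 were used.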

Additional observations from a re-analysis of the deposited data

Results flagged for a closer look

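Some gene groups moved one way between neutrophil-gene and other remaining spots at d1 and the other way in a later section under the same rule, and these differences were not tested. Fibroblast genes had a ratio of 0.869 at d1 and 1.35 at d14. Matrix genes had 0.897 at d1 and 1.42 at d14. Ventricular cardiomyocyte genes had 1.03 at d1 and 0.937 at d14. Atrial genes had 1.11 at d1 and 0.451 at d4. Mitochondrially encoded genes had 1.06 at d1 and 0.908 at d14. Lymphocyte genes had 4.52 at d1, on 6 UMIs in neutrophil-gene spots, and 0.294 at d7.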

How the results depend on the processing

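The count of higher genes was 471 when no spot was set aside by injury genes, 72 with at least 50 UMIs per gene and 210 with no minimum, against 135, and lay between 103 and 185 under the other alternatives. The count of lower genes lay between 89 and 138 under every alternative run, against 121. The ratio of the 88 summed neutrophil list genes, 1.36, was 1.62 for the top 5% of spots, 3.69 when no spot was set aside, and 1.23 both without the 4 spots of largest scoring share and without the 4 with the most scoring UMIs. Under these alternatives the marker ratio lay between 6.41 and 19.7 that of other stefin A genes between 9.11 and 26.4, and that of haemoglobin, 2.15, between 1.41 for the top 20% of spots and 2.56 for the top 20% by injury genes set aside. The median log2 ratio of endothelial genes, -0.17, was 0.0042 for the top 20% of spots. That of matrix genes, -0.12, was 0.0011 with means over spots and 0.82 when no spot was set aside. That of ventricular cardiomyocyte genes, 0.04, was -0.0121 and -0.00961 for the top 5% and 20% of spots, -0.28 when no spot was set aside, -0.00596 when scored after thinning to 2500 UMIs and -0.00895 when scored by Cstdc4 and Cstdc5. The cause of these changes was not tested. Depth limits single genes: a neutrophil-gene pool of 274074 UMIs gives 1 UMI a value of 3.65 CPM. No paired analysis was possible because each time point has 1 section.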
